A study of Mus musculus with 9 samples.

Results

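Ly6C-low microglia from mouse brain were compared with monocytes from mouse spleen on whole-transcript gene expression arrays. The samples were chosen by their labels, 3 arrays of Ly6C-low microglia and 3 arrays of spleen monocytes, which are 6 of the 9 arrays in the series. The other 3 arrays, of Ly6C-high microglia, entered no comparison here apart from an alternative fit. All cells came from wild-type C57BL/6 mice of a specific pathogen-free colony. The labels name no treatment of the animals and give no ages. The labels name the Ly6C-low cells bulk microglia. Per the labels' protocols, perfused brains were minced, digested with collagenase and DNase, enriched for leukocytes on a Percoll gradient and sorted by flow cytometry after staining for Ly6C, MHC class II, F4/80, CD11b and CD45. The protocols describe the brain alone. Spleen processing and the gate of the monocytes were not found in the labels, so tissue and tissue processing cannot be told apart in any difference below. Nothing in the labels ties the 3 replicates of a population to different animals or pools. The p-values therefore reflect only how far these samples scatter, which may be technical scatter.

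Microglia are the resident macrophages of the brain parenchyma. They descend from yolk sac precursors, depend on signalling through the CSF1 receptor and are known for a gene programme that is held in place by TGF-beta in the brain. Monocytes arise from bone marrow stem cells, circulate in blood and rest in the spleen as a reserve, in a classical form that carries Ly6C and CCR2 and a nonclassical form that patrols vessels. Both are myeloid cells that use the factor PU.1, so the comparison sets a tissue macrophage beside a circulating relative of another origin.

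Values are log2 expression values as deposited. The values of a gene in the text are given for replicates 1, 2 and 3 in that order, microglia before monocytes, and a log2 fold change is microglia minus monocytes with its standard error, from limma fitted to these 6 arrays with Benjamini-Hochberg adjustment over 19937 genes. A gene passed the test with an adjusted p under 0.05, and a gene is called higher or lower in microglia only where it passed. A gene was read from the brightest of its probe sets that carry exactly 1 gene symbol. Arrays correlated at 0.967 to 0.980 within microglia, 0.978 to 0.983 within monocytes and 0.907 to 0.925 between the groups over all probe sets. Values of different genes come from different probes and are not compared as levels.

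The sort antigens fitted the labels in part. The F4/80 gene Adgre1 stood at 9.97, 10.48 and 10.10 against 8.95, 8.97 and 8.97 (log2 fold change 1.22 ± 0.14, adjusted p = 0.00164) and the CD11b gene Itgam at 11.52, 11.44 and 11.36 against 10.54, 10.66 and 10.34 (0.93 ± 0.10, adjusted p = 0.00159). Every microglia array lay above every monocyte array for both. Ptprc, which encodes CD45, was lower at 9.68, 10.15 and 10.23 against 11.61, 11.43 and 11.59 (-1.52 ± 0.16, adjusted p = 0.00121). The calls of Itgam and Ptprc were lost in the fit that also held the Ly6C-high arrays. The 2 probe sets for Ly6C are annotated to both Ly6c1 and Ly6c2 and cannot be assigned to either gene. Since these antigens were used in the sort, they check the labels and are no finding. The Ly6C values spread widely among the microglia arrays, at 9.87, 8.79 and 7.25 against 11.69, 11.64 and 11.65 in monocytes for 1 of them (log2 fold change -3.03 ± 0.64, adjusted p = 0.0287 in a fit over all 34760 probe sets). The other gave 10.39, 8.94 and 7.07 against 10.31, 10.20 and 10.51 and did not pass (-1.54 ± 0.80, adjusted p = 0.268). Microglia replicate 1 thus lay at the monocyte level on the latter probe set.

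Single arrays stood apart in markers of other cells. Brain endothelium genes had list means of 7.53, 6.95 and 6.25 in microglia against 6.22, 6.27 and 6.19 in monocytes, and pericyte and smooth muscle genes 7.15, 6.72 and 6.31 against 5.90, 5.91 and 5.86, with microglia replicate 1 highest in both. Neutrophil genes had list means of 6.44, 6.66 and 8.87 in microglia, highest in replicate 3, against 10.48, 9.93 and 9.76 in monocytes. Among the monocyte arrays, replicate 2 was highest in erythroid and platelet genes (7.52, 8.16 and 7.54) and replicate 3 in natural killer cell genes (6.68, 6.51 and 7.49). Results on which these genes bear are given beside those values, and without the arrays concerned where a count moved by more than 1.5 times.

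**Figure D1:**
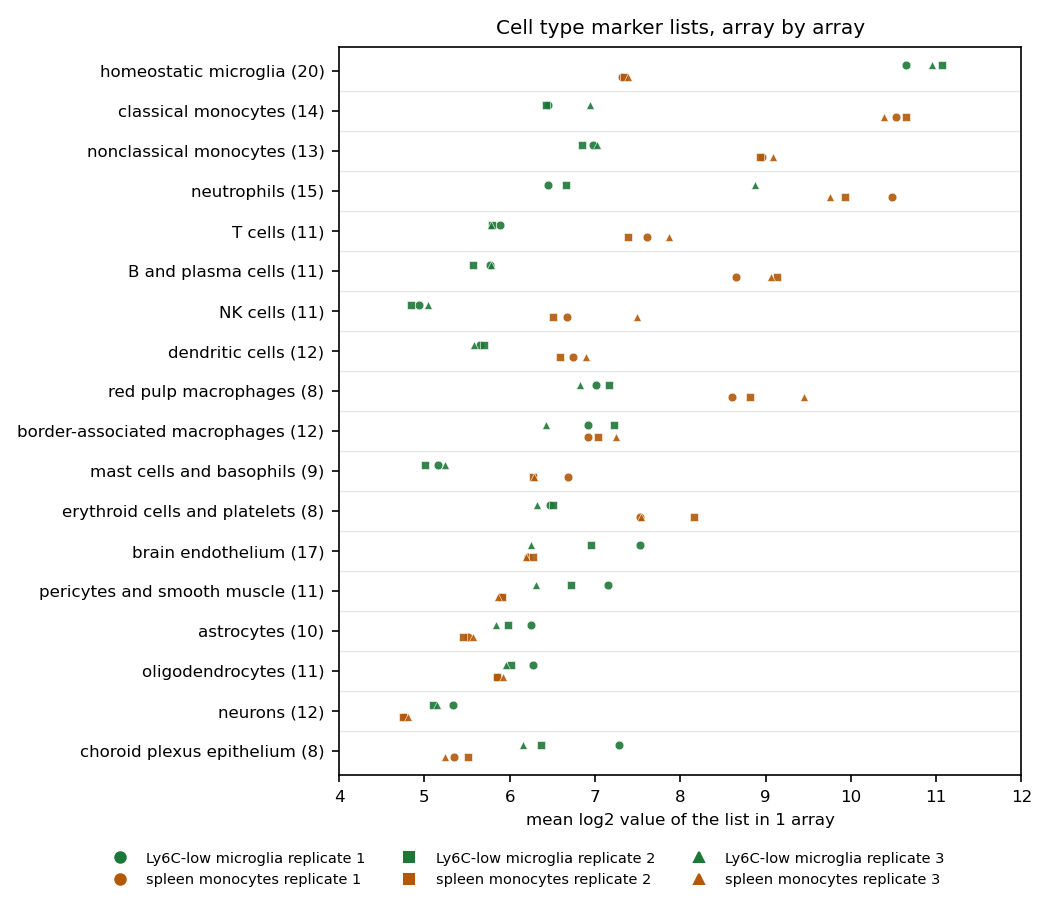
Mean log2 value of each of 18 cell type marker lists (number of measured genes in parentheses) in each of the 6 arrays, with green for Ly6C-low microglia, orange for spleen monocytes and a symbol per replicate. Homeostatic microglia genes lie to the right in microglia, monocyte and lymphoid lists lie to the right in monocytes, and the neutrophil, endothelium and pericyte lists spread among the microglia arrays.

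The 2 populations differed in many genes, among them most markers of each cell. Of 19937 genes, 2105 (10.6%) were higher and 2509 (12.6%) lower in microglia, 4614 (23.1%) together. By size, 765 genes were higher and 1222 lower by at least 2-fold, 236 and 394 by at least 4-fold, and 23 and 63 by at least 16-fold. The values of the 2 groups did not overlap for 8425 genes (42.3%), and this held for all 4614 genes that passed. The median log2 fold change of all genes was 0.05. Without monocyte replicate 1 or 2 the number of higher genes was 1276 or 1330, and with the Ly6C-high arrays in the fit 1356 were higher and 1538 lower. With replicate 2 as the only microglia array, which leaves out the arrays highest in endothelial and in neutrophil genes, 1163 were higher and 966 lower, and of the genes named below in the comparison Gzma, Slc2a1, Cnp, Eno2, Aqp1, Bhlhe40, Klf2, Nt5e, C3ar1, C1qc, Gpr84, Csf2rb, Rsad2, Jun, Egr1, Atf3, Hspa1a, Ski, Abca1, Lpl, Hk2, Top2a, Mki67, Blvrb, Ncf1, Itgam, Ccl2, Ccrl2, Cd63, Entpd1, Ncf4, Siglecf, Smad7 and Tgfb1 did not pass in that fit. The 53 gene lists below are described by counts and medians, to be read against these shares. Many of their counts were smaller with replicate 2 as the only microglia array, and no list counts are given for that fit. The lists name 837 members, of which 769 were measured and entered with no filter on low values.

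**Figure D2:**
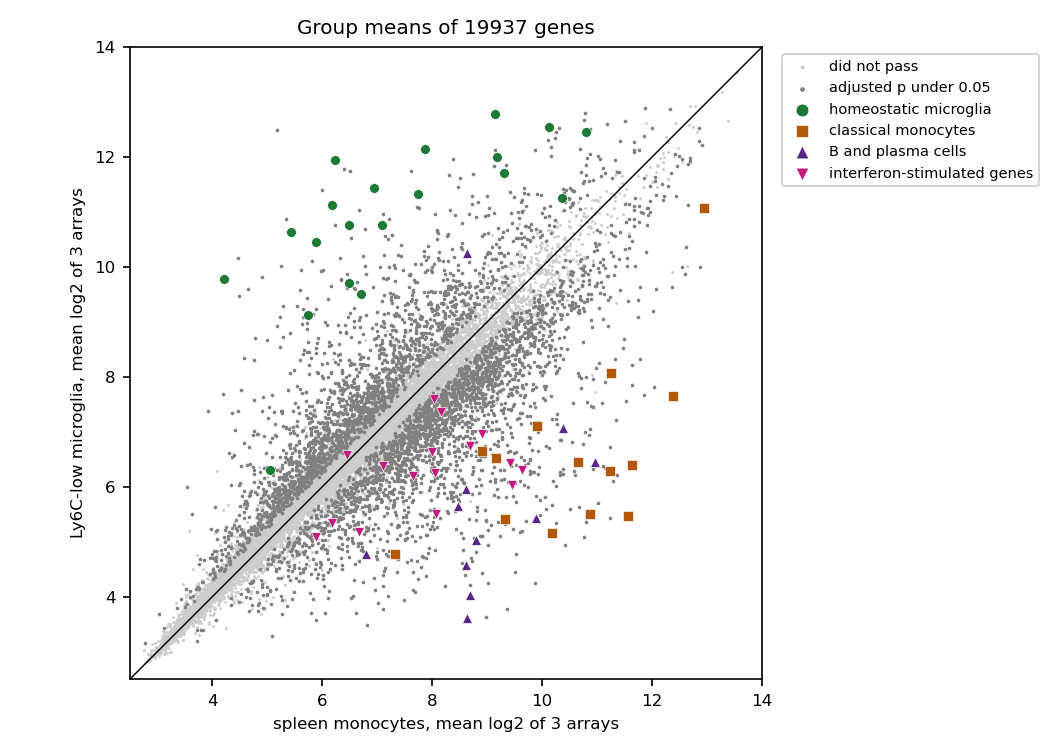
Mean log2 value of each gene over the 3 spleen monocyte arrays (horizontal) and the 3 Ly6C-low microglia arrays (vertical), with the line of equal values. Dark grey points passed the test, light grey points did not, and 4 gene lists are coloured; all 20 homeostatic microglia genes lie above the line and all 14 classical monocyte genes below it.

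The genes with the largest excess in microglia included several receptors, a junction scaffold and 1 secreted carrier protein. Ttr, the thyroid hormone and retinol carrier transthyretin, had the largest difference, at 13.02, 12.59 and 11.88 against 5.09, 5.60 and 4.81 (log2 fold change 7.33 ± 0.33, adjusted p = 5.62e-05). Its values lay far above the monocytes in all 3 microglia arrays. Transthyretin is best known from choroid plexus epithelium. Of 8 choroid plexus genes measured, Ttr was the only one higher, and without microglia replicate 1 the number was 2. The list median was 0.67. Of the 8, Ttr included, 5 lay above and 1 below the monocytes with no overlap of arrays, against 42.3% of all genes without overlap in either direction. The water channel Aqp1 was lower (-1.44 ± 0.34), a call lost without microglia replicate 2 or 3 or monocyte replicate 1, and the other 6 did not pass. The anti-ageing protein Kl, for example, stood at 6.85, 5.04 and 5.002 against 4.60, 4.38 and 4.68, with microglia replicate 1 the highest array. The mean of the list, Ttr included, was 7.28, 6.37 and 6.16 in microglia and 5.34, 5.52 and 5.24 in monocytes. Whether Ttr RNA came from the sorted cells was not tested.

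Tmem119, a surface protein used to tell microglia from other macrophages, stood at 11.58, 12.06 and 12.18 against 6.22, 6.46 and 6.04 (5.70 ± 0.19, adjusted p = 2.57e-05). Fcrls, an Fc receptor-like scavenger receptor, was at 9.23, 10.18 and 9.95 against 4.17, 4.32 and 4.15 (5.57 ± 0.24, adjusted p = 4.73e-05). Ccl12, a ligand of the chemokine receptor CCR2, was at 9.72, 10.51 and 10.25 against 4.75, 4.23 and 4.43 (5.69 ± 0.23, adjusted p = 3.82e-05). Fcrls and Ccl12 lay below the median of all genes in every monocyte array. The orphan receptor Gpr165 (5.53 ± 0.28), the lysophosphatidylserine receptor Gpr34 (5.21 ± 0.17) and the ADP receptor P2ry12 (4.95 ± 0.23), which directs microglial processes towards injury, were also among the 12. The rest were the scaffold gene Tanc2 (5.40 ± 0.26), the plexin domain protein Plxdc2 (5.39 ± 0.20), the secreted protease Adamts1 (5.25 ± 0.16), the sulfotransferase Gal3st4 (4.99 ± 0.19) and Tjp1 (4.96 ± 0.16), which encodes the junction scaffold ZO-1. The part of endothelial cells in the Tjp1 values was not tested. The calls of these 12 genes held in all 16 alternatives.

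The genes with the largest deficit in microglia were monocyte genes mixed with genes of other spleen cells. Plac8, a small cysteine-rich protein of monocytes and lymphocytes, stood at 5.11, 4.45 and 6.84 against 11.60, 11.59 and 11.46 (-6.09 ± 0.58, adjusted p = 8.47e-04). Microglia replicate 3 was the highest of its group, as it was for the interferon-induced Ifitm6 at 4.31, 5.12 and 7.05 against 10.96, 10.96 and 10.71 (-5.38 ± 0.66, adjusted p = 0.00234). Adgre4, an adhesion receptor of resident monocytes, was at 4.57, 4.81 and 5.45 against 10.36, 10.53 and 10.34 (-5.47 ± 0.22, adjusted p = 4.00e-05), and Treml4, a TREM-like receptor, at 5.25, 5.76 and 5.86 against 10.47, 10.78 and 10.76 (-5.05 ± 0.18, adjusted p = 3.38e-05). S100a4, a calcium-binding protein of motile cells, was at 5.78, 6.53 and 6.86 against 11.62, 11.60 and 11.66 (-5.23 ± 0.26, adjusted p = 7.61e-05). All 5 lay below the monocytes in every microglia array. Cytip, which binds the integrin regulator cytohesin (-5.81 ± 0.33), the phospholipase-like Plbd1 (-5.17 ± 0.33) and the adhesion glycoprotein Emb (-5.31 ± 0.28) followed. The others are known from neighbouring cell types: Car1, the red cell carbonic anhydrase (-5.68 ± 0.21), Spic, a factor of red pulp macrophages (-5.61 ± 0.24), P2ry10, a lymphocyte receptor (-5.35 ± 0.18), and the MHC class II chain gene H2-Ea (-5.14 ± 0.16). These calls also held in all 16 alternatives.

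**Figure D3:**
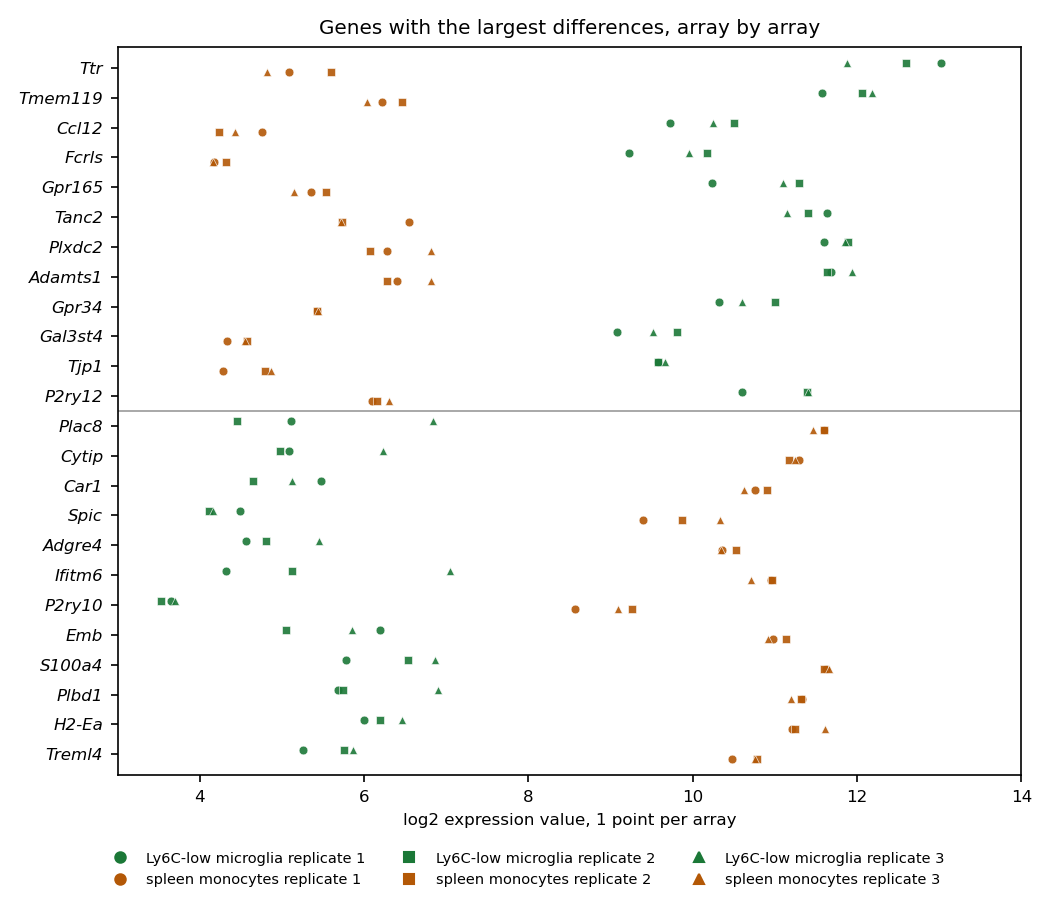
Log2 value in each array of the 12 genes with the largest positive and the 12 with the largest negative log2 fold change (above and below the line), by the naming rule, with green for Ly6C-low microglia and orange for spleen monocytes. No gene shows overlapping groups, and Plac8, Cytip, Ifitm6 and Plbd1 are highest in replicate 3 within microglia.

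Promoter sequences are shown for 4 listed genes of opposite direction that carry the same PU.1 site, GAGGAAGT or its reverse complement, near a start. Slco2b1, an organic anion transporter, and Hpgds, a prostaglandin D synthase, were higher in microglia, and S100a4 and P2ry10 were lower. The windows run from 120 bases before to 30 after a RefSeq start (GRCm38.p6), with PU.1 sites in capitals, and were chosen after the values were seen as the listed genes with the largest differences in each direction that hold the site there. They are chr7:99711311-99711460 and chr6:65144701-65144850 on the minus strand and chrX:107089213-107089362 and chr3:90603650-90603799 on the plus strand. In Slco2b1 the capitals also cover the AP-1 site TGACTCA, which shares its first base with the last base of the PU.1 site.
Slco2b1: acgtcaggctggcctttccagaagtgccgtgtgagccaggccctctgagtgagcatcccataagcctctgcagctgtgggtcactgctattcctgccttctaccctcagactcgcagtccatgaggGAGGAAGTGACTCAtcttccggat
Hpgds: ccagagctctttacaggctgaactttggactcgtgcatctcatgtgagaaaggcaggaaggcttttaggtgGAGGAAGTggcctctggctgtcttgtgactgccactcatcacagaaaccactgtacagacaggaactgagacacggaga
P2ry10: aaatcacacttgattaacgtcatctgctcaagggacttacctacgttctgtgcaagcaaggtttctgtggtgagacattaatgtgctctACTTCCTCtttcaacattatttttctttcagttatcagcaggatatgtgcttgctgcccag
S100a4: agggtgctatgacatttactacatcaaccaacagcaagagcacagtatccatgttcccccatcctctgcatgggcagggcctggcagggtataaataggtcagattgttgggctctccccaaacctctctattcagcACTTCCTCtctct
The site begins at position 7 in Slco2b1, at position -49 in Hpgds, at -31 in P2ry10 and at position 18 in S100a4, where position 1 is the first transcribed base. It lies on the coding strand in the former 2 genes and on the opposite strand in the latter 2. Slco2b1 stood at 10.57, 10.94 and 10.76 against 6.08, 6.32 and 7.04 (4.27 ± 0.25, adjusted p = 1.37e-04), Hpgds at 10.58, 10.99 and 11.05 against 6.83, 7.07 and 7.75 (3.66 ± 0.26, adjusted p = 2.73e-04) and P2ry10 at 3.65, 3.52 and 3.70 against 8.56, 9.26 and 9.10 (-5.35 ± 0.18, adjusted p = 2.93e-05). In windows of 250 bases before to 50 after the start, on either strand, GAGGAAGT was found in 2.77% of 19176 windows of 15613 tested genes, in 3.41% of windows of higher and 4.14% of lower genes, and in 5.31% and 6.91% of those that differed by at least 4-fold. A gene can have several windows. The share was thus above that of all windows in both directions. A match is a description of letters, not of binding.

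The other motifs were searched in the same windows on both strands, and no difference between shares was tested. The interferon response core GAAAGTGAA was in 0.63% of all windows, 0.82% of those of genes higher by at least 4-fold and 2.39% of those lower by at least 4-fold. The latter 2 shares rest on 2 of 245 and 9 of 376 windows. For the AP-1 site TGACTCA the shares were 4.63%, 3.67% and 8.51%, and for the GC box GGGCGGGG 25.1%, 26.5% and 22.9%, while over all higher and all lower genes the GC box was in 30.7% and 30.6%. The MEF2 core TAAAAATA was in 1.88%, 0.82% and 1.06%, on 2 windows of higher and 4 of lower genes, and in 1.60% and 0.88% over all higher and all lower genes. For the C/EBP palindrome TTGCGCAA the shares were 0.23%, 0.00% and 0.80%, on 0 windows of higher and 3 of lower genes. Median GC content was 57.3% over all windows, 57.3% in those of genes higher and 53.7% in those of genes lower by at least 4-fold.

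Genes of homeostatic microglia were higher without exception among those measured. All 20 passed, against 10.6% of all genes, with a median log2 fold change of 3.62. Beside those above, the largest were the transcription factor Sall1, which maintains microglial identity, at 10.41, 10.49 and 10.44 against 6.11, 5.84 and 5.73 (4.56 ± 0.11, adjusted p = 2.20e-05), and the secreted olfactomedin Olfml3 at 11.16, 11.62 and 11.54 against 7.15, 7.33 and 6.33 (4.50 ± 0.28). Sparc, a matricellular protein, was at 12.72, 12.80 and 12.82 against 8.96, 9.14 and 9.30 (3.64 ± 0.10, adjusted p = 2.20e-05). The phagocytic kinase Mertk (3.60 ± 0.29), the lipid sensor Trem2 (3.68 ± 0.16), the sialic acid-binding lectin Siglech (2.81 ± 0.16), the fractalkine receptor Cx3cr1 (2.41 ± 0.07) and the CSF1 receptor Csf1r (1.67 ± 0.07) were higher as well. Csf1r was at 12.45, 12.46 and 12.47 against 10.73, 10.82 and 10.83. The smallest differences were those of the ectonucleotidase Entpd1 (0.90 ± 0.21, a call lost without any 1 array other than microglia replicate 1) and the fructose transporter Slc2a5 (1.25 ± 0.19). The list mean was 10.64, 11.07 and 10.96 in microglia and 7.32, 7.34 and 7.39 in monocytes. In bulk samples, fewer cells of a type and less RNA per cell cannot be told apart, here and in the results below.

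Regulators known from microglia were mostly higher there. Of 15 regulators known from microglia, 9 were higher and 1 lower (median 0.81). After Sall1 came the clock-related repressor Bhlhe41 at 8.89, 9.12 and 9.22 against 5.75, 6.02 and 5.16 (3.44 ± 0.23, adjusted p = 2.08e-04), the ETS factor Etv5 at 10.35, 10.61 and 10.54 against 7.06, 6.91 and 7.61 (3.31 ± 0.19, adjusted p = 1.24e-04) and Mef2a (1.57 ± 0.13). Bhlhe40, a close relative of Bhlhe41, went the other way, at 7.36, 6.93 and 6.72 against 9.48, 9.69 and 10.60 (-2.92 ± 0.32, adjusted p = 0.00151). Each population thus had the higher value of 1 of these 2 relatives. Spi1, which encodes PU.1, stood at 9.79, 10.18 and 10.04 against 10.51, 10.29 and 10.47 (-0.42 ± 0.12, adjusted p = 0.0538), Irf8 at 9.43, 9.66 and 9.57 against 9.27, 9.29 and 9.59 (0.17 ± 0.12, adjusted p = 0.334) and Runx1 at 9.91, 9.94 and 10.05 against 10.07, 10.12 and 9.78 (-0.02 ± 0.11, adjusted p = 0.902), and these did not pass. Missing the threshold does not show that their levels were equal.

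Of 18 regulators known from monocytes, 3 were higher in microglia and 6 lower. Without monocyte replicate 3, and after cyclic loess, the number higher was 6. The lower ones were led by Ets1, a factor of lymphocytes and vessels, at 6.88, 6.53 and 6.41 against 9.40, 9.42 and 9.67 (-2.89 ± 0.14, adjusted p = 7.54e-05), the basic leucine zipper factor Nfil3 at 7.99, 7.98 and 8.07 against 10.76, 10.68 and 10.58 (-2.66 ± 0.08, adjusted p = 2.20e-05), Myb, a factor of blood progenitors (-2.51 ± 0.19), and Nfe2, a factor of megakaryocytes and red cell precursors (-2.43 ± 0.12). Higher in microglia were Cebpa, a myeloid differentiation factor, at 9.70, 9.77 and 9.79 against 7.34, 6.96 and 7.67 (2.43 ± 0.18, adjusted p = 3.15e-04) and the Krüppel-like factor Klf2 (1.22 ± 0.20). Nr4a1, on which nonclassical monocytes depend, stood at 11.89, 11.64 and 11.69 against 11.18, 10.87 and 11.99 and did not pass (0.40 ± 0.28, adjusted p = 0.364).

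Genes of classical monocytes were lower without exception among those measured, and nonclassical monocyte genes in part. All 14 classical genes passed, against 12.6% of all genes (median -4.07). Ccr2, the receptor by which monocytes leave the marrow, stood at 5.88, 6.91 and 6.54 against 10.55, 10.52 and 10.90 (-4.21 ± 0.27, adjusted p = 1.71e-04). The glutathione transferase Mgst1 (-5.02 ± 0.09) and haptoglobin, Hp (-4.94 ± 0.52), were lower still. Hp was raised in microglia replicate 3, at 5.53, 5.83 and 7.51, and fibronectin, Fn1, in replicate 1, at 9.24, 8.20 and 6.79 against 11.15, 11.43 and 11.17 in monocytes. The call of Fn1 was lost without monocyte replicate 2. Lyz2, which encodes lysozyme, had the smallest difference of the list (10.58, 11.44 and 11.21 against 12.88, 12.99 and 12.95, -1.86 ± 0.22, adjusted p = 0.00197, lost in the fit with 9 arrays). Its near-identical relative Lyz1 was also lower (-2.03 ± 0.15), and probes of such copies may share signal. Of 13 nonclassical genes 8 were lower and none higher (median -1.98). After Adgre4 and Treml4 these were led by the integrin chain Itgal, part of LFA-1, at 6.29, 5.96 and 6.53 against 10.44, 10.46 and 10.09 (-4.07 ± 0.18, adjusted p = 4.71e-05), the bacterial sensor Pglyrp1 (-2.95 ± 0.32) and the peptidase Ace (-2.90 ± 0.23). Genes of both monocyte lists were thus higher in the spleen arrays. Treml4 is also on the red pulp macrophage list, and the part of other spleen cells in these differences was not tested.

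The calcium-binding S100 family and the oxidative burst followed the monocyte genes. Of 10 S100 genes 6 were lower (median -2.50), with S100a6 at 7.87, 6.71 and 8.36 against 12.47, 12.30 and 12.35 (-4.73 ± 0.40, adjusted p = 5.41e-04), S100a10 at 7.23, 6.47 and 6.47 against 11.53, 11.05 and 11.14 (-4.51 ± 0.24, adjusted p = 9.75e-05) and S100a11 at 9.90, 9.83 and 10.26 against 12.54, 12.63 and 12.47 (-2.55 ± 0.13, adjusted p = 7.61e-05). S100a8 (8.79, 9.10 and 12.15 against 12.92, 12.54 and 12.47, -2.63 ± 0.87, adjusted p = 0.0805) and S100a9 (8.56, 9.08 and 12.06 against 12.54, 12.32 and 12.21, -2.45 ± 0.88, adjusted p = 0.0996), which together form calprotectin, did not pass. Microglia replicate 3, the array of its group highest in neutrophil genes, was near the monocytes for both and the other replicates were far below. Of 9 oxidase and lysozyme genes 7 were lower, 3 in the fit with all 9 arrays, and 1 was higher. Cybb, the catalytic subunit of the phagocyte oxidase, stood at 6.90, 7.74 and 8.03 against 11.50, 11.54 and 11.52 (-3.97 ± 0.28, adjusted p = 2.68e-04). The small GTPase Rac2 (-1.80 ± 0.22) and the regulatory subunit Ncf4 (-1.65 ± 0.19, lost in the fit with 9 arrays) were lower, while the organizer subunit Ncf1 was higher (0.72 ± 0.13, lost in the fit with 9 arrays).

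Lymphocyte markers were higher in the monocyte arrays. Of 11 B and plasma cell genes 10 were lower in microglia (list means 5.77, 5.57 and 5.79 against 8.66, 9.13 and 9.06), among them the immunoglobulin joining chain Jchain at 3.80, 3.54 and 3.48 against 8.53, 8.58 and 8.81 (-5.03 ± 0.12, adjusted p = 2.20e-05), the CD20 gene Ms4a1 (-4.66 ± 0.25) and the heavy chain Ighm (-4.50 ± 0.16). The adaptor Blnk was higher, at 9.78, 10.43 and 10.56 against 8.35, 8.76 and 8.77 (1.63 ± 0.23, adjusted p = 0.0042). Of 11 T cell genes 9 were lower (5.89, 5.79 and 5.78 against 7.61, 7.39 and 7.86), led by the CD3 chains Cd3g (-4.08 ± 0.24), Cd3d (-3.26 ± 0.13) and Cd3e (-3.01 ± 0.18). Of 11 natural killer cell genes 6 were lower, with the granzyme Gzma at 4.90, 4.63 and 4.91 against 8.21, 8.44 and 9.75 (-3.99 ± 0.40, adjusted p = 0.00102). The killer cell receptor Ncr1 did not pass and was high only in monocyte replicate 3, at 4.58, 4.70 and 4.38 against 5.09, 5.20 and 6.998. List means of T, B and natural killer cells were above every microglia array in all 3 monocyte arrays.

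Markers of dendritic cells, red pulp macrophages, mast cells and red cells were also lower in microglia in part. Of 12 dendritic cell genes 7 were lower, led by the kynurenine enzyme Kmo (-3.13 ± 0.20) and the homing receptor Ccr7 (-2.74 ± 0.09). Of 8 red pulp macrophage genes 4 were lower, with Spic at 4.49, 4.12 and 4.16 against 9.40, 9.88 and 10.34, whereas their iron exporter Slc40a1 did not pass (8.26, 8.53 and 8.47 against 8.29, 8.25 and 9.22). Mast cell and basophil genes were lower in 5 of 9, and in 3 without microglia replicate 2 or 3. They included the histamine enzyme Hdc at 6.36, 6.50 and 7.70 against 10.38, 10.52 and 10.09 (-3.48 ± 0.36, adjusted p = 0.00125) and the stem cell factor receptor Kit at 5.79, 5.42 and 5.51 against 8.04, 7.57 and 8.29 (-2.39 ± 0.20, adjusted p = 5.07e-04). Erythroid and platelet genes were lower in 3 of 8, and in 1 without microglia replicate 1 or monocyte replicate 1. The platelet chemokine Ppbp was at 5.08, 4.62 and 4.63 against 8.97, 9.94 and 9.65 (-4.74 ± 0.27, adjusted p = 1.16e-04). The part of these cells in genes that were lower in microglia was not tested.

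Neutrophil genes were lower in microglia in part, with a count that moved with single arrays. Of 15 genes 7 were lower in microglia. The count was 13 without microglia replicate 3, 3 without replicate 1, 2 without replicate 2, and 3, 3 and 4 without monocyte replicates 1, 2 and 3. Il1r2, the decoy receptor of interleukin-1, stood at 5.33, 5.36 and 6.73 against 10.30, 10.05 and 9.82 (-4.25 ± 0.39, adjusted p = 7.56e-04) and the collagenase Mmp8 at 4.80, 4.72 and 6.80 against 9.44, 9.37 and 9.20 (-3.89 ± 0.55, adjusted p = 0.00415). Replicate 3 of the microglia was the highest of its group for both. The monocyte arrays had neutrophil list means of 10.48, 9.93 and 9.76. Whether neutrophils contributed to these arrays was not tested.

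Vessel and mural cell genes were higher in part and lower in none, and most in microglia replicate 1. The shares higher were 29.4% of brain endothelium and 45.5% of pericyte and smooth muscle genes, against 10.6% of all genes. Of 17 brain endothelium genes 5 were higher, 9 without microglia replicate 3, 2 without microglia replicate 2, and 2, 3 and 2 without monocyte replicates 1, 2 and 3. The tight junction gene Cldn5 stood at 8.96, 8.13 and 7.57 against 6.89, 6.49 and 6.81 (1.49 ± 0.34, adjusted p = 0.0257), a call lost without microglia replicate 2 or any 1 monocyte array. The barrier transporter Slco1a4 had the largest difference of the list but did not pass, at 7.67, 6.60 and 4.61 against 4.17, 4.22 and 3.89 (2.20 ± 0.73, adjusted p = 0.0794). The glucose transporter Slc2a1 was even among the microglia at 10.61, 10.65 and 10.36 against 9.99, 9.88 and 9.65 (0.70 ± 0.13, adjusted p = 0.0104). Of 11 pericyte and smooth muscle genes 5 were higher, 3 without microglia replicate 2 or in the fit with 9 arrays and 2 without any 1 monocyte array. The pericyte regulator Rgs5 stood at 8.55, 8.02 and 6.42 against 5.54, 4.78 and 4.94 (2.58 ± 0.55, adjusted p = 0.0193) and the actin gene Acta2 at 9.66, 8.79 and 8.03 against 7.04, 7.13 and 6.82 (1.83 ± 0.39, adjusted p = 0.0191), both lost without microglia replicate 2 or any 1 monocyte array. Microglia replicate 1 was the highest array for Cldn5, Slco1a4, Rgs5 and Acta2.

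Neural markers mostly did not pass, and all that did were higher in microglia apart from Cnp. Median log2 fold changes were 0.21, 0.30 and 0.16 for astrocyte, neuron and oligodendrocyte genes, and 10.6% of all genes were higher. Of 10 astrocyte genes 2 were higher, and 1 without microglia replicate 2 or any 1 monocyte array and in the fit with 9 arrays. The glutamate transporter Slc1a3, also known from microglia, was the one of the larger difference (8.12, 8.41 and 8.39 against 5.56, 5.23 and 5.999, 2.71 ± 0.20, adjusted p = 3.44e-04). The astrocyte filament Gfap stood at 5.12, 5.05 and 4.96 against 4.94, 4.88 and 5.005 and did not pass. Of 12 neuron genes 4 were higher, led by the enolase Eno2 at 6.11, 6.22 and 6.54 against 4.76, 5.22 and 4.97 (1.31 ± 0.16, adjusted p = 0.00249) and the synaptic Snap25 at 5.68, 5.93 and 6.37 against 4.91, 4.80 and 4.76 (1.17 ± 0.18, adjusted p = 0.00504), while the microtubule gene Tubb3 stood at 5.19, 4.95 and 4.74 against 4.99, 5.06 and 4.95 without passing. Of 11 oligodendrocyte genes 1 was higher, the myelin protein Mag (1.07 ± 0.15), and 1 lower, the enzyme gene Cnp (-0.62 ± 0.17), a call lost on leaving out any 1 of the 6 arrays, while the major myelin gene Mbp did not pass (7.38, 7.01 and 6.998 against 6.95, 6.98 and 7.03). Border-associated macrophages, which lie in the meninges and around vessels, gave 3 genes higher and 3 lower of 12, with 1 lower in the fit with 9 arrays. The scavenger receptor Stab1 was at 9.70, 9.74 and 9.34 against 6.36, 6.87 and 6.54 (3.0 ± 0.17, adjusted p = 1.13e-04) and Lyve1, a hyaluronan receptor of these cells, at 6.84, 7.26 and 6.65 against 5.87, 5.62 and 5.60 (1.22 ± 0.17, adjusted p = 0.00404), but the mannose receptor Mrc1 did not pass (8.84, 9.41 and 8.07 against 8.39, 8.67 and 9.51). The lower genes included the transglutaminase F13a1, also a classical monocyte gene, at 7.66, 7.28 and 6.35 against 9.97, 9.86 and 9.88 (-2.81 ± 0.32, adjusted p = 0.00178, lost in the fit with 9 arrays), and the lectin Clec4n at 6.19, 6.20 and 5.21 against 8.36, 8.66 and 8.48 (-2.63 ± 0.28, adjusted p = 0.00128).

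Class II antigen presentation genes were lower in microglia. Of 11 class II genes 8 were lower and none higher (median -1.44). H2-Aa stood at 6.14, 6.45 and 6.41 against 10.97, 11.14 and 11.30 (-4.80 ± 0.13, adjusted p = 2.20e-05), H2-Ab1 at 7.17, 7.17 and 7.08 against 9.96, 10.19 and 10.65 (-3.13 ± 0.17, adjusted p = 1.12e-04) and the invariant chain Cd74 at 8.49, 8.48 and 8.57 against 11.25, 11.39 and 11.74 (-2.95 ± 0.13, adjusted p = 5.62e-05). The microglia arrays were tight and the groups far apart for all 3. Ciita, the class II transactivator, varied among monocytes and did not pass (6.24, 6.08 and 6.02 against 6.44, 6.95 and 8.70, -1.25 ± 0.55, adjusted p = 0.167), nor did the costimulator Cd86 (9.61, 10.06 and 9.99 against 9.76, 10.37 and 9.82). B and dendritic cells also carry class II, and their list means in monocytes were 8.66, 9.13 and 9.06 and 6.74, 6.59 and 6.90, against 5.77, 5.57 and 5.79 and 5.65, 5.70 and 5.58 in microglia. Their part in the class II result was not tested. An antibody to MHC class II was in the sort, and whether cells were gated on it is not given in the sources used here. Of 10 class I pathway genes 1 was higher and 4 lower. The lower ones were the peptide transporter Tap1 (-1.60 ± 0.14) and the immunoproteasome subunits Psmb8 (-1.51 ± 0.13), Psmb9 (-1.38 ± 0.13) and Psmb10 (-0.88 ± 0.11). The light chain B2m stood at 12.24, 12.39 and 12.20 against 12.35, 12.20 and 12.26 and did not pass (difference 0.01 ± 0.08).

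Interferon-stimulated genes were lower in microglia almost throughout. Of 16 measured, 14 were lower and none higher (median -1.46). The count was 14 under each of the 3 rescalings of the arrays and 11 to 13 on leaving out 1 array. With replicate 2 as the only microglia array the median was -1.39, and several of these calls were lost. Irf7, the factor that amplifies the interferon response, stood at 5.74, 6.12 and 6.22 against 9.71, 9.40 and 9.25 (-3.43 ± 0.17, adjusted p = 7.42e-05). Rtp4, a chaperone induced by interferon, was at 6.33, 6.42 and 6.15 against 9.53, 9.67 and 9.72 (-3.34 ± 0.10, adjusted p = 2.20e-05), the RNA sensor Oas2 at 6.70, 6.23 and 6.35 against 9.57, 9.58 and 9.10 (-2.99 ± 0.18, adjusted p = 1.47e-04) and the antiviral radical enzyme Rsad2 at 5.61, 5.47 and 5.44 against 7.54, 8.55 and 8.09 (-2.55 ± 0.25, adjusted p = 9.01e-04). Groups were clearly separated for these 4. The signalling factor Stat2 (-0.44 ± 0.14) and the GTPase Mx2 (0.13 ± 0.19) did not pass.

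Immediate early genes, which cells switch on within minutes of a stimulus, were higher in microglia. Of 20 measured, 15 were higher and 1 lower (median 1.01), and 9 were higher without monocyte replicate 1. With replicate 2 as the only microglia array the median was 1.05, and nearly all calls of higher genes were lost. Jun, a subunit of AP-1, stood at 12.15, 12.17 and 12.05 against 9.93, 9.09 and 10.60 (2.25 ± 0.36, adjusted p = 0.00638), Egr1 at 12.41, 12.41 and 12.54 against 10.10, 9.76 and 10.88 (2.21 ± 0.28, adjusted p = 0.00256) and Atf3 at 12.73, 12.62 and 12.68 against 10.42, 10.21 and 11.68 (1.91 ± 0.37, adjusted p = 0.014). The call of Atf3 was lost without monocyte replicate 1. Microglia values were nearly equal between arrays, and monocyte replicate 3 was the highest of its group for all 3. Rhob, a stress-induced GTPase, had the largest difference (2.60 ± 0.20). The nuclear receptor Nr4a2 was lower, at 8.36, 7.23 and 7.26 against 10.09, 9.92 and 10.04 (-2.40 ± 0.31, adjusted p = 0.00278). Heat shock chaperones were higher in 8 of 11 genes and lower in none (median 0.91), among them Hspa1a, whose near-identical copy Hspa1b may share its probes, at 11.50, 11.43 and 11.40 against 8.65, 7.60 and 9.16 (2.97 ± 0.37, adjusted p = 0.00266) and Hsph1 at 10.63, 10.62 and 10.69 against 8.05, 8.19 and 8.02 (2.56 ± 0.08, adjusted p = 2.20e-05). Brain digestion with enzymes is given by the labels and spleen processing is not, so these differences and handling cannot be told apart.

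**Figure D4:**
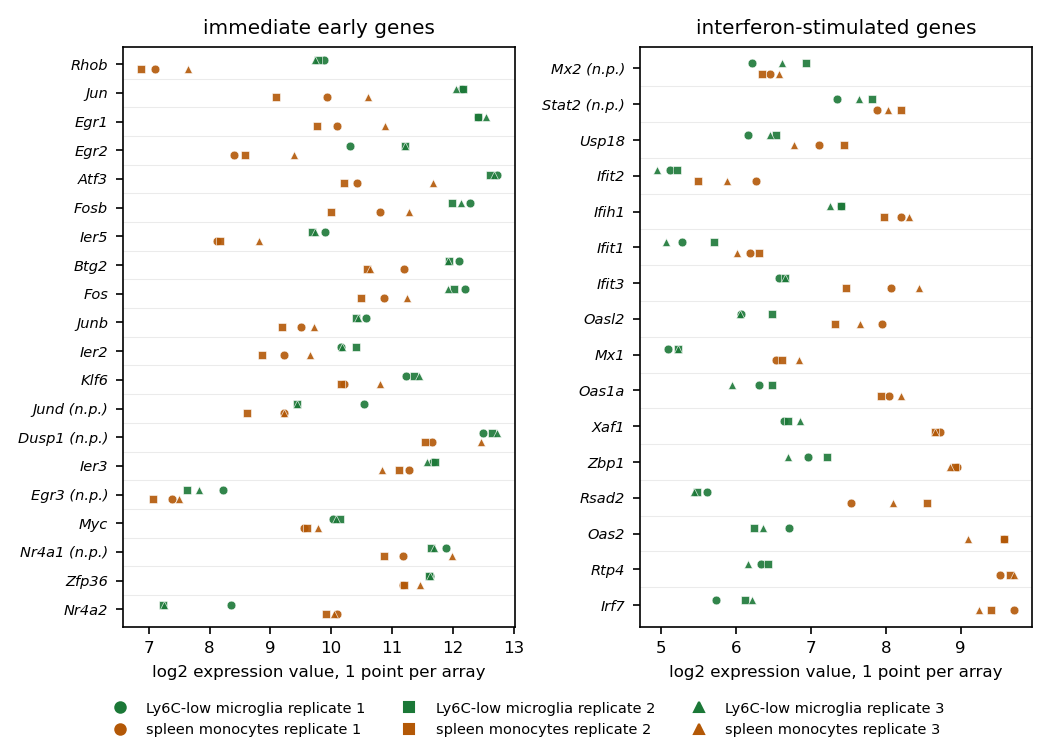
Log2 value in each array of the 20 immediate early genes and the 16 interferon-stimulated genes measured, ordered by log2 fold change, with green for Ly6C-low microglia, orange for spleen monocytes and n.p. for genes that did not pass. Microglia means lie to the right for every immediate early gene but Nr4a2, and monocyte means for every interferon-stimulated gene but Mx2.

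Inflammatory mediators were divided. Of 17 cytokine and NF-kB feedback genes 9 were higher and 4 lower, 2 lower without monocyte replicate 2 or in the fit with 9 arrays. Gpr84, a receptor for medium-chain fatty acids, stood at 10.34, 11.10 and 10.83 against 6.49, 7.01 and 5.17 (4.54 ± 0.48, adjusted p = 0.00128), Il1a at 11.95, 11.997 and 11.97 against 8.19, 7.87 and 9.09 (3.59 ± 0.30, adjusted p = 5.07e-04) and Tnf at 11.69, 11.82 and 11.58 against 8.59, 8.37 and 9.26 (2.95 ± 0.23, adjusted p = 3.93e-04). Il1b was lower, at 9.66, 10.44 and 10.39 against 11.48, 11.65 and 11.49 (-1.37 ± 0.21, adjusted p = 0.00603, lost in the fit with 9 arrays). The 2 interleukin-1 genes thus went opposite ways. Il6 did not pass (5.23, 5.49 and 5.72 against 6.14, 6.40 and 7.71).

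Chemokine ligands showed a similar division. Of 18, 6 were higher and 5 lower, 3 lower in the fit with 9 arrays. After Ccl12, which recruits cells through CCR2, the monocyte attractants Ccl7 (9.13, 9.42 and 7.89 against 6.27, 6.42 and 6.62, 2.37 ± 0.39, adjusted p = 0.00725) and Ccl2 (9.81, 10.997 and 10.51 against 8.12, 8.18 and 9.34, 1.89 ± 0.43, adjusted p = 0.0235, lost without microglia replicate 2 or 3 or monocyte replicate 1 or 2) were higher. Lower were Ccl5 at 7.71, 7.48 and 7.81 against 11.86, 11.33 and 12.36 (-4.18 ± 0.26, adjusted p = 1.62e-04), which T and natural killer cells also make, the interferon-gamma target Cxcl9 (-3.38 ± 0.34) and the myeloid chemokines Ccl6 (-2.80 ± 0.26, lost in the fit with 9 arrays) and Ccl9 (-2.32 ± 0.13). Receptors were lower in 10 of 16 genes and higher in 3 (median -1.11). Cxcr4, which holds cells in marrow niches, stood at 7.75, 7.87 and 8.11 against 11.35, 11.03 and 11.07 (-3.24 ± 0.13, adjusted p = 3.90e-05). Higher were Cx3cr1 at 12.52, 12.55 and 12.55 against 10.09, 10.08 and 10.22 (2.41 ± 0.07, adjusted p = 2.20e-05), Ccr6 (2.19 ± 0.27) and the chemerin-binding Ccrl2 (1.42 ± 0.16).

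Growth factor and cytokine receptors differed in a few members. Of 18 genes 6 were higher and 5 lower, with 1 lower in the fit with 9 arrays. Tgfbr1, the signalling receptor of TGF-beta, stood at 11.47, 11.81 and 11.86 against 9.42, 9.35 and 9.16 (2.41 ± 0.13, adjusted p = 1.02e-04). Beside Il1r2, the lower ones included the common beta chain of GM-CSF and IL-5 receptors, Csf2rb (-1.40 ± 0.28, lost without monocyte replicate 1), and the alpha chain Csf2ra (-1.10 ± 0.15), both lost in the fit with 9 arrays. Within the TGF-beta pathway 6 of 17 genes were higher and 3 lower, 1 lower in the fit with 9 arrays. The inhibitors Ski (1.56 ± 0.28, lost without monocyte replicate 2), Skil (1.37 ± 0.08) and Smad7 (1.16 ± 0.14) were higher, and the ligand Tgfb1 (-0.65 ± 0.11, lost with 9 arrays and after cyclic loess) and the matrix target Tgfbi, at 7.76, 8.13 and 7.99 against 10.998, 10.88 and 10.87 (-2.96 ± 0.11, adjusted p = 3.50e-05), were lower. Smad3, a signal transducer of the pathway, did not pass (8.82, 9.23 and 9.14 against 8.82, 9.30 and 8.69).

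Phagocytic receptors and opsonins differed in both directions. Of 18 genes 7 were higher and 4 lower. Mertk stood at 11.25, 11.29 and 11.46 against 7.41, 7.36 and 8.44 (3.60 ± 0.29, adjusted p = 4.62e-04) and its bridging ligands Gas6 at 8.56, 8.83 and 8.19 against 5.84, 5.86 and 5.96 (2.64 ± 0.16, adjusted p = 1.67e-04) and Pros1 at 9.47, 10.08 and 9.77 against 7.47, 6.94 and 7.07 (2.62 ± 0.20, adjusted p = 3.60e-04), all 3 higher in microglia. The high-affinity IgG receptor Fcgr1 was higher (1.79 ± 0.21) and the activating receptor Fcgr4 lower (-1.86 ± 0.26). The scavenger receptor Msr1 was at 5.82, 6.60 and 6.41 against 9.73, 10.26 and 9.55 (-3.57 ± 0.26, adjusted p = 3.04e-04) and Cd36 at 6.32, 6.32 and 5.58 against 8.27, 8.89 and 8.57 (-2.50 ± 0.25, adjusted p = 0.00108), both lower. Tyrobp, the adaptor of TREM2, did not pass (11.83, 12.03 and 12.07 against 12.15, 12.11 and 12.19, difference -0.17 ± 0.09).

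The C1q genes of complement were higher and 2 genes of its alternative pathway lower. Of 14 genes 5 were higher and 5 lower. C1qa, which starts the classical pathway, stood at 11.71, 12.32 and 12.36 against 9.13, 8.69 and 9.58 (3.001 ± 0.27, adjusted p = 7.27e-04), with C1qb (2.35 ± 0.22) and C1qc (2.11 ± 0.21) beside it, and the receptor C3ar1 at 10.71, 11.25 and 11.31 against 7.51, 8.67 and 6.98 (3.37 ± 0.43, adjusted p = 0.00286). Properdin, Cfp, which stabilizes the alternative pathway, was at 7.22, 7.26 and 6.995 against 9.81, 9.65 and 9.91 (-2.63 ± 0.11, adjusted p = 4.08e-05), factor B, Cfb, was lower (-1.80 ± 0.12), and the regulator Cd55 was at 4.30, 3.92 and 4.14 against 7.004, 7.82 and 8.11 (-3.52 ± 0.29, adjusted p = 4.55e-04). Every microglia array lay on the same side of the monocytes for each of these genes.

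Lectins of the Siglec and C-type families were lower in 11 of 18 genes and higher in 3 (median -1.26). The 3 higher genes were all Siglecs: Siglech at 11.69, 12.20 and 12.10 against 9.08, 9.09 and 9.38 (2.81 ± 0.16, adjusted p = 1.15e-04), Cd33 at 10.84, 11.66 and 11.54 against 9.77, 9.77 and 9.46 (1.68 ± 0.23, adjusted p = 0.0036) and Siglecf (0.74 ± 0.17, lost without any 1 array other than monocyte replicate 3). The lower genes were led by C-type lectins, with the mycobacterial glycolipid receptor Clec4e at 4.80, 4.74 and 6.46 against 10.10, 10.74 and 9.91 (-4.92 ± 0.50, adjusted p = 0.0011), Clec12a at 5.72, 5.87 and 6.71 against 10.19, 10.22 and 10.16 (-4.09 ± 0.26, adjusted p = 1.68e-04), Clec4a1 (-4.15 ± 0.14) and Clec4d (-4.05 ± 0.64). Microglia replicate 3 was the highest of its group for Clec4e and Clec12a. Members of the Clec4a group are close relatives and may share probes.

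Toll-like receptor genes that passed were mostly higher in microglia, in a count that moved with the settings. Of 15 genes 5 were higher and 1 lower, with 1 higher without monocyte replicate 1 or 2 and 3 without monocyte replicate 3, 8 after quantile normalization or with array weights and 9 after cyclic loess. Tlr3, which senses double-stranded RNA, stood at 7.52, 8.998 and 8.80 against 6.22, 5.70 and 5.74 (2.56 ± 0.40, adjusted p = 0.00602). Tlr8 was lower, at 4.11, 4.02 and 3.93 against 7.32, 7.20 and 7.08 (-3.18 ± 0.09, adjusted p = 2.20e-05). The bacterial sensors Tlr2 (10.02, 10.14 and 10.21 against 10.35, 10.24 and 9.98) and Tlr4 (8.26, 9.33 and 9.06 against 8.61, 8.75 and 7.83) did not pass.

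Nucleotide receptors differed in both directions. Of 12 genes 6 were higher, 3 without microglia replicate 2 or 3, and 5 lower, 3 in the fit with 9 arrays. P2ry12 stood at 10.59, 11.38 and 11.40 against 6.10, 6.15 and 6.30 (4.95 ± 0.23, adjusted p = 5.84e-05), P2ry13 at 11.88, 12.31 and 12.23 against 7.67, 7.76 and 8.17 (4.28 ± 0.17, adjusted p = 3.87e-05) and the ATP-gated channel P2rx7 at 9.67, 10.02 and 10.01 against 7.95, 7.89 and 8.12 (1.91 ± 0.12, adjusted p = 1.91e-04). The ectonucleotidase Nt5e, which makes adenosine, was lower (-1.29 ± 0.19). Orphan and adhesion G protein-coupled receptors were likewise higher in 8 and lower in 6 of 17. Adgrg1, also called GPR56, stood at 10.78, 11.05 and 11.04 against 7.46, 7.08 and 6.78 (3.85 ± 0.18, adjusted p = 6.27e-05), and Adgre5, which encodes CD97, at 8.28, 8.26 and 8.43 against 11.71, 11.70 and 11.90 (-3.45 ± 0.09, adjusted p = 2.20e-05). The proton-sensing receptor Gpr132 (-4.60 ± 0.13) and Gpr141 (-4.77 ± 0.16) were lower.

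Integrins and other adhesion genes differed in both directions. Of 16 integrin genes 5 were higher, 3 in the fit with 9 arrays, and 5 lower. Itga4, the alpha chain of VLA-4, stood at 6.02, 6.24 and 6.35 against 10.62, 10.68 and 10.47 (-4.39 ± 0.11, adjusted p = 2.20e-05) and its partner Itgb7 at 5.96, 5.74 and 5.75 against 8.36, 8.19 and 8.58 (-2.56 ± 0.12, adjusted p = 6.37e-05). Itgb5, a vitronectin receptor chain, was at 11.86, 11.64 and 11.53 against 7.98, 8.26 and 8.67 (3.38 ± 0.19, adjusted p = 1.12e-04) and Itga6, a laminin receptor chain, at 8.89, 9.28 and 9.24 against 6.96, 7.13 and 7.30 (2.01 ± 0.14, adjusted p = 2.79e-04). In the list of selectin ligands and barrier adhesion genes 4 of 12 were higher and 7 lower. The junctional adhesion molecules F11r, at 9.54, 10.002 and 10.26 against 5.38, 5.12 and 6.34 (4.32 ± 0.35, adjusted p = 4.38e-04), and Jam2, at 8.99, 9.09 and 9.33 against 5.80, 5.94 and 5.76 (3.30 ± 0.11, adjusted p = 2.68e-05), were higher, and the hyaluronan receptor Cd44, at 5.51, 6.30 and 7.03 against 10.45, 10.66 and 10.60 (-4.29 ± 0.36, adjusted p = 5.24e-04), was lower. F11r and Jam2 are known from endothelium too, and the part of endothelial cells was not tested.

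Matrix, guidance and cytoskeletal genes also went both ways. Matrix and protease genes were higher in 7 and lower in 10 of 21, with the gelatinase Mmp2 at 8.15, 8.42 and 8.74 against 6.005, 5.995 and 6.09 (2.41 ± 0.15, adjusted p = 1.70e-04) and the galectin Lgals3 at 7.04, 6.55 and 7.23 against 11.03, 10.68 and 10.84 (-3.91 ± 0.19, adjusted p = 6.98e-05). Thrombospondin, Thbs1, was lower (-3.41 ± 0.31). Of 18 guidance genes 5 were higher and 4 lower. Of the semaphorin receptors, Plxna4 was at 9.16, 9.55 and 9.57 against 5.54, 5.78 and 5.82 (3.71 ± 0.14, adjusted p = 3.65e-05) and Plxnc1 at 5.50, 5.75 and 5.50 against 9.05, 9.02 and 8.79 (-3.37 ± 0.11, adjusted p = 2.58e-05). Cytoskeletal genes were higher in 4, with Arhgap5 at 8.76, 9.66 and 9.42 against 5.33, 5.40 and 5.88 (3.74 ± 0.26, adjusted p = 2.77e-04), and lower in 12 of 19, 7 in the fit with 9 arrays, the lower ones led by Ahnak (7.45, 6.27 and 5.76 against 9.79, 9.58 and 9.97, -3.29 ± 0.41, adjusted p = 0.00266), the intermediate filament Vim (-2.83 ± 0.22) and the myosin Myo1g (-2.48 ± 0.15).

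More lysosomal genes were higher than lower, and lipid genes differed in both directions. Of 22 lysosomal genes 12 were higher and 1 lower (median 0.57). The proteases Ctsd, at 12.61, 12.49 and 12.45 against 10.03, 10.17 and 10.71 (2.21 ± 0.18, adjusted p = 4.61e-04), Lgmn, at 12.21, 12.29 and 12.44 against 9.98, 10.19 and 10.12 (2.22 ± 0.10, adjusted p = 4.71e-05), and Ctsf (2.22 ± 0.09) were the furthest apart, and Ctse, an aspartic protease of immune cells, was lower at 7.05, 7.52 and 8.07 against 10.42, 11.12 and 10.89 (-3.26 ± 0.29, adjusted p = 7.08e-04). Cathepsin B, Ctsb, did not pass (11, 11.50 and 11.33 against 11, 11.04 and 11.10). Lipid handling genes were higher in 7 and lower in 5 of 15: the cholesterol exporter Abca1 stood at 9.89, 10.12 and 10.12 against 7.60, 8.36 and 7.42 (2.26 ± 0.25, adjusted p = 0.0015), Abca9 at 10.24, 10.33 and 10.32 against 7.81, 7.91 and 7.82 (2.45 ± 0.07, adjusted p = 2.20e-05) and Apoe, a lipid carrier of brain, at 12.63, 12.64 and 12.70 against 11.60, 11.35 and 11.57 (1.15 ± 0.09, adjusted p = 4.04e-04), while lipoprotein lipase, Lpl, was lower (-2.12 ± 0.31). Genes of disease-associated microglia, a state described near amyloid plaques, were higher in 7 and lower in 8 of 21 (median 0.02). Of that list Clec7a, at 6.71, 7.70 and 7.53 against 10.26, 10.17 and 10.39 (-2.96 ± 0.26, adjusted p = 6.11e-04), and Cd52 (-2.47 ± 0.35, lost in the fit with 9 arrays) were lower, and the lysosomal tetraspanin Cd63 (1.65 ± 0.28) higher.

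Respiratory chain, ribosomal and cholesterol synthesis genes were lower in microglia where they differed, and glycolysis genes divided. Respiratory chain genes were lower in 12 of 18 and higher in none (median -1.04), with the cytochrome oxidase subunit Cox5a at 8.43, 8.56 and 8.57 against 10.34, 10.07 and 9.998 (-1.61 ± 0.11, adjusted p = 2.37e-04) and the ATP synthase subunit Atp5o at 8.69, 8.80 and 8.53 against 10.33, 10.27 and 9.93 (-1.50 ± 0.13, adjusted p = 6.47e-04). Ribosomal protein genes were lower in 8 of 12 (median -0.72). Without microglia replicate 3 or monocyte replicate 1, 2 or 3 the number was 5, 4, 5 or 4, and 5 after cyclic loess or in the fit with 9 arrays. Of 16 glycolysis genes 9 were lower and 4 higher. Hexokinase 2, Hk2, stood at 8.83, 8.66 and 8.85 against 7.13, 6.64 and 6.46 (2.03 ± 0.18, adjusted p = 6.47e-04) and Pfkfb3, which activates phosphofructokinase, at 10.55, 10.45 and 10.69 against 8.33, 8.09 and 8.40 (2.29 ± 0.11, adjusted p = 6.98e-05), both higher. The lysosomal hexose transporter Slc2a6 (-2.55 ± 0.09), the platelet phosphofructokinase Pfkp (-2.38 ± 0.22) and the lactate exporter Slc16a3 (-2.18 ± 0.19) were lower. Cholesterol synthesis genes were lower in 5 of 14, 3 without monocyte replicate 1 or in the fit with 9 arrays, among them the regulator Srebf2 at 7.73, 7.69 and 7.77 against 8.94, 8.76 and 8.86 (-1.12 ± 0.08, adjusted p = 2.39e-04).

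Ion channels and transporters were mostly higher in microglia. Of 17 channel and transporter genes 10 were higher and 2 lower, 1 without microglia replicate 2 or 3 or monocyte replicate 1 or 2 (median 1.06). The inward rectifier Kcnj2 stood at 7.14, 7.96 and 7.66 against 4.65, 4.71 and 4.94 (2.82 ± 0.21, adjusted p = 3.54e-04), the amino acid transporter Slc7a8 at 9.66, 10.16 and 10.18 against 6.86, 7.41 and 7.35 (2.80 ± 0.20, adjusted p = 3.10e-04) and the potassium channel Kcnk6 at 10.01, 9.79 and 9.75 against 7.77, 7.54 and 7.41 (2.28 ± 0.12, adjusted p = 9.79e-05). The calcium-activated channel Kcnn4 was lower (-1.58 ± 0.09). Of 12 iron and heme genes 3 were higher and 3 lower, 1 lower without microglia replicate 2 or 3 or any 1 monocyte array. Ceruloplasmin, Cp, an iron oxidase, stood at 6.99, 6.73 and 5.91 against 4.62, 4.04 and 4.43 (2.18 ± 0.30, adjusted p = 0.00377) and the heme degradation enzyme Blvrb at 7.52, 7.96 and 7.61 against 8.76, 9.43 and 9.35 (-1.48 ± 0.21, adjusted p = 0.00409).

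Cell division genes were lower in microglia. Of 23 measured, 16 were lower and none higher (median -1.29), and 10 were lower without monocyte replicate 2. Top2a, which untangles replicated DNA, stood at 5.60, 5.43 and 5.53 against 8.78, 8.56 and 7.50 (-2.76 ± 0.33, adjusted p = 0.00205), Mki67, a marker of cycling cells, at 6.36, 6.38 and 6.18 against 9.39, 9.34 and 7.94 (-2.58 ± 0.39, adjusted p = 0.00523, lost in the fit with 9 arrays), and the spindle motor Kif23 at 5.63, 5.72 and 5.84 against 8.57, 8.43 and 8.12 (-2.64 ± 0.13, adjusted p = 7.42e-05). Monocyte replicate 3 was the lowest of its group for all 3, and every microglia array lay below it. Myb and Kit, genes of blood progenitors, were also lower, as given above, and the part of such cells was not tested. The replication clamp Pcna did not pass (10.54, 11.49 and 11.58 against 11.32, 11.40 and 11.26).

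**Figure D5:**
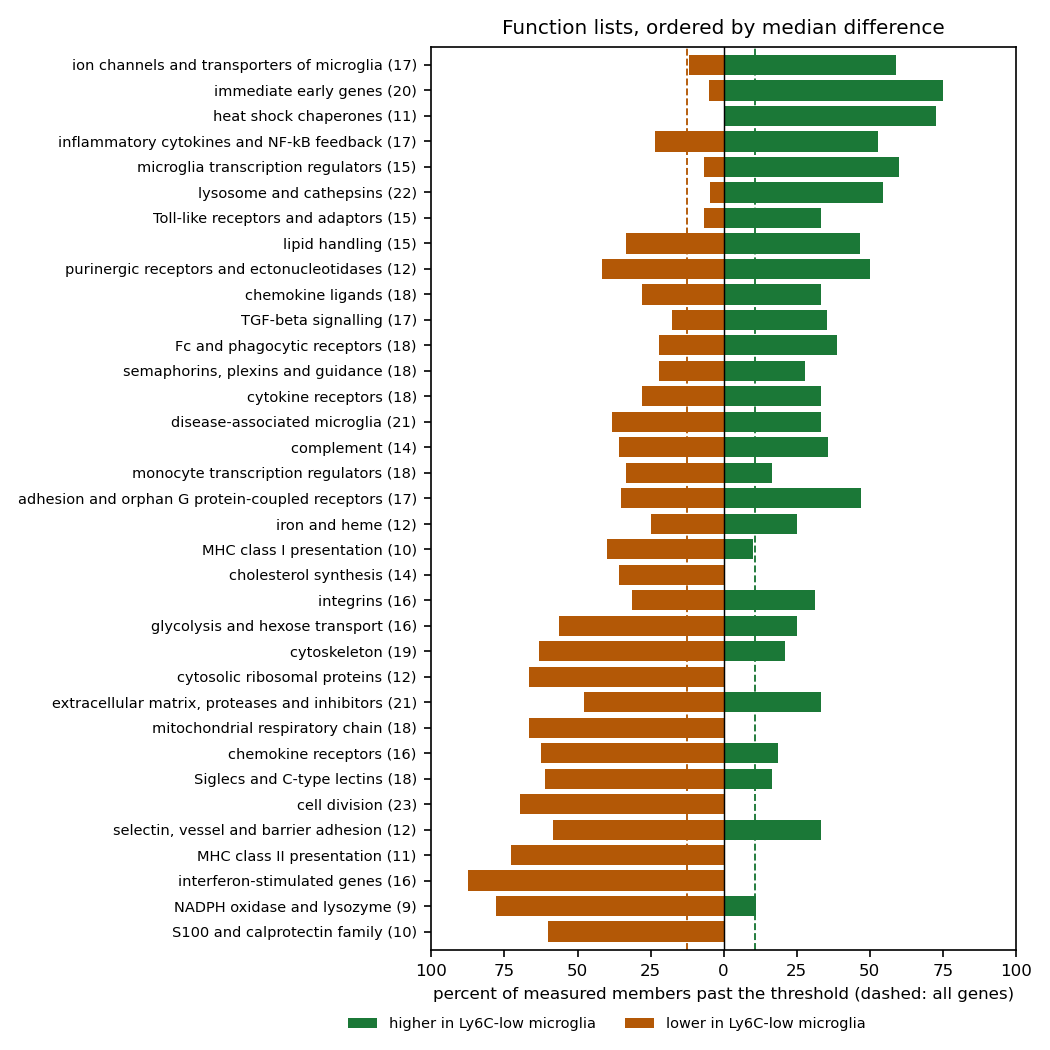
Percent of the measured members (number in parentheses) of each of 35 function lists that were higher (green, to the right) or lower (orange, to the left) in Ly6C-low microglia, ordered by median log2 fold change, with dashed lines at 10.6% and 12.6%, the shares of all genes. Immediate early, heat shock, channel and lysosome lists lie mostly to the right, and interferon, oxidase, class II, cell division, respiratory chain and ribosomal lists mostly to the left.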

How the data were processed

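Total RNA of 9 samples was hybridised to whole-transcript arrays, and the RNA integrity numbers in the labels' protocols are high. The authors deposited log2 expression values for 34760 probe sets, and the submitters' processing notes name RMA and oligo, with background correction, summarization settings and versions not given in the sources used here. RMA compresses differences of dim probe sets. Probe sets were named from the platform annotation: 21640 carry 1 gene symbol, 1321 several and 11799 none, and the brightest probe set of a gene by its mean over 9 arrays stood for it, which left 19937 genes.

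Groups were taken from the sample titles. The 6 arrays were fitted with limma 3.58.1 (lmFit and eBayes, R 4.3.3) on the deposited values, with no further normalization, no filter on low values and no covariate, and p-values were adjusted over all genes by the Benjamini-Hochberg method. The procedure was tested on simulated data with 200 changed genes. Alternatives were all 9 arrays, quantile normalization, cyclic loess, median centring, dim genes left out, an intensity trend with robust prior, the mean of all probe sets, array weights, the replicate block, each array left out, and only microglia replicate 2.

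The members and the 53 gene lists were chosen with earlier results of these data known. Named genes are the 12 largest and 12 smallest log2 fold changes among genes that passed with non-overlapping groups, a mean in the higher group no lower than that of the median gene and a symbol that is neither predicted nor an antigen receptor segment; up to 4 passing members of each list with the largest difference and up to 2 in the opposite direction; the sort antigens; and the highest member of each cell type list. Outside that rule, chosen after their values were seen, are Ace, Adgrg1, C1qb, Ccl2, Ccl7, Ccl9, Ccrl2, Cd63, Cd86, Cfb, Ciita, Csf2ra, Ctsb, Entpd1, Fcgr1, Fcgr4, Fn1, Gas6, Gfap, Gpr132, Hp, Il6, Irf8, Itga6, Kl, Mbp, Mmp2, Mrc1, Mx2, Myo1g, Ncf4, Ncr1, Pros1, Runx1, S100a9, Siglecf, Slc2a5, Slc40a1, Slco1a4, Slco2b1, Smad3, Smad7, Spi1, Stat2, Tgfb1, Thbs1, Tlr2, Tlr4 and Tubb3, and all genes and families under other observations. Promoter windows are RefSeq's (GRCm38.p6).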

Additional observations from a re-analysis of the deposited data

Results flagged for a closer look

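The comparison above used probe sets with exactly 1 gene symbol. In a limma fit over all 34760 probe sets with Benjamini-Hochberg adjustment, 1341 of the 13120 probe sets that carry no gene symbol here or several passed the same threshold, a signal outside the genes that the report describes. In all, 5444 probe sets passed in that fit. Of the 13120, 11799 carry no symbol here and 1321 carry several. The 2 Ly6C probe sets are among the latter. In groups of 3 arrays, single values were not tested as outliers.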

How the results depend on the processing

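The 16 alternatives changed the number of genes that passed, and no named gene that passed in the reported fit changed direction. Named genes that did not pass were not followed through the alternatives. With all 9 arrays in the fit, 1356 genes were higher and 1538 lower in Ly6C-low microglia. With only replicate 2 of the microglia beside the monocytes, an alternative chosen after seeing the data, 1163 were higher and 966 lower. That fit has 1 microglia array, which is assumed to vary like the monocytes. Leaving out 1 array in turn gave 1276 to 2235 higher and 1674 to 2263 lower genes. The cause of these shifts was not tested beyond the smaller number of arrays. The fit with the replicate number as a replicate block gave 1707 higher and 2207 lower. Deviations of same-numbered arrays from their group means correlated at 0.01, 0.03 and -0.07. These correlations cannot decide whether same-numbered samples share an animal, day or pool, and the labels do not say. Quantile normalization gave 2372 and 2321, cyclic loess 2225 and 2481, median centring 1760 and 2598, and array weights 2599 and 2819, all within 1.5 times the values reported. Of 279 genes that passed and are named or covered by the naming rule, 194 passed in all 16 alternatives, 64 lost the call in 1 to 4 and 21 in 5 or more, and none changed direction. Of 848 list medians recomputed, 751 moved by less than the spread between replicates and 97 by more. The medians of 8 lists (adhesion and orphan G protein-coupled receptors, border-associated macrophages, chemokine ligands, complement, cytokine receptors, disease-associated microglia, monocyte transcription regulators, and semaphorins) lie near 0 and change sign in some alternatives, so no direction is read from them. With 3 arrays a group, the number of arrays limits the precision, and genes near the background of the array have compressed differences.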

Other observations

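Several gene families were lower in Ly6C-low microglia. Some of their members, such as Psmb8, Psmb9, Psmb10, Ms4a1 and Ifitm6, are on lists above and are counted again here. The families were chosen after their values were seen, so their counts are a description. Of all genes, 12.6% were lower and 10.6% higher in microglia, and the family counts are to be read against these shares. All 5 Schlafen genes that passed, of 7 measured, were lower (median -3.02), with Slfn4 at 5.61, 4.89 and 6.80 against 9.77, 10.04 and 10.07 (log2 fold change -4.20 ± 0.46, adjusted p = 0.00145) and Slfn1 at 4.78, 5.28 and 5.12 against 8.78, 8.46 and 8.44 (-3.50 ± 0.16, adjusted p = 5.78e-05). The Ifi200 family of interferon-inducible nuclear proteins gave 6 lower and none higher of 9 (median -2.41), led by Ifi209 at 4.29, 3.92 and 4.45 against 8.63, 8.94 and 8.50 (-4.47 ± 0.18, adjusted p = 3.78e-05) and Ifi205 (-3.60 ± 0.14). The Ifitm family of interferon-induced membrane proteins gave 4 lower and 1 higher of 7, the latter being Ifitm10 at 8.44, 8.15 and 8.65 against 6.45, 6.62 and 6.94 (1.75 ± 0.18, adjusted p = 0.00106). Members of the Schlafen and Ifi200 families are near copies of one another, and their probes may share signal. These 3 families moved with the interferon-stimulated genes of the report, in the same 6 arrays.

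Annexins, which bind membranes in the presence of calcium, were lower in 7 of 12 genes and higher in none, with Anxa2, a partner of S100a10, at 5.95, 5.73 and 5.80 against 10.21, 9.55 and 9.92 (-4.07 ± 0.17, adjusted p = 4.52e-05) and Anxa1, which limits leukocyte recruitment, at 6.71, 5.86 and 7.89 against 10.45, 10.47 and 10.72 (-3.73 ± 0.48, adjusted p = 0.00287). The Ms4a family of tetraspan membrane proteins was lower in 7 of 19 genes, with a family median of only -0.28. Ms4a4c led them at 5.72, 5.36 and 5.71 against 10.37, 10.53 and 10.61 (-4.91 ± 0.13, adjusted p = 2.20e-05), while the macrophage member Ms4a7 did not pass (6.67, 7.24 and 5.79 against 6.06, 6.28 and 6.54). The leukocyte receptor family Cd300 was lower in 4 of 8, led by Cd300lb (-3.25 ± 0.18). Of the lymphocyte GTPases of the Gimap family 7 of 8 were lower, led by Gimap3 (-2.90 ± 0.21), and T cell markers moved with them, with list means of 5.89, 5.79 and 5.78 in microglia and 7.61, 7.39 and 7.86 in monocytes. The part of T cells in the Gimap values was not tested.

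Large complexes were lower by small amounts, in counts that moved with single arrays. Of 19 proteasome core subunits 14 were lower and 1 higher (median -0.93), with Psma7 at 8.93, 9.33 and 9.25 against 10.82, 10.72 and 10.48 (-1.50 ± 0.14, adjusted p = 8.44e-04), and 6 or 9 were lower without monocyte replicate 1 or 2. Of 77 mitochondrial ribosomal proteins 29 were lower and 1 higher (median -0.51), and 16, 15 or 18 were lower without microglia replicate 3, monocyte replicate 1 or monocyte replicate 2. Mrpl33 had the largest difference (-1.95 ± 0.20), and Mrps6 was the one that was higher, at 9.13, 9.07 and 9.53 against 7.86, 8.21 and 7.85 (1.27 ± 0.16, adjusted p = 0.0027), a call lost with replicate 2 as the only microglia array.

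Among genes on no list, some were higher in microglia by amounts close to those of the homeostatic genes. Rapgef5, an exchange factor for the GTPase Rap, stood at 9.87, 9.80 and 9.79 against 4.79, 4.88 and 5.07 (4.91 ± 0.09, adjusted p = 1.60e-05), and Nav3, a microtubule-binding neuron navigator protein, at 10.20, 9.89 and 9.94 against 5.36, 4.89 and 5.50 (4.76 ± 0.18, adjusted p = 3.50e-05). Plau, the urokinase protease, was at 10.20, 11.04 and 10.82 against 6.92, 6.25 and 7.14 (3.92 ± 0.30, adjusted p = 3.66e-04) and the kinase gene Nuak1 at 9.11, 9.80 and 9.85 against 5.52, 5.76 and 5.50 (3.99 ± 0.21, adjusted p = 9.75e-05). Fscn1, which bundles actin filaments, was at 10.08, 10.02 and 10.35 against 6.57, 6.03 and 6.35 (3.84 ± 0.16, adjusted p = 4.52e-05). Lag3, an inhibitory receptor best known from T cells, was at 9.91, 9.84 and 9.84 against 6.53, 6.26 and 6.55 (3.42 ± 0.10, adjusted p = 2.20e-05), against the direction of the T cell list. The calls of these 6 genes held in all 16 alternatives.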
